A study of Mus musculus with 4 samples.

Results

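The cells described here are interferon-responsive microglia, the brain's resident macrophages caught with several interferon-stimulated genes switched on. A cell was counted if it had at least 500 genes, at least 1000 UMIs (unique molecular identifiers, each 1 captured transcript) and at most 10% mitochondrial UMIs. It also had to carry a UMI of at least 2 of the microglial genes Sall1, Siglech, P2ry12 and Tmem119 and of at least 4 of the interferon-stimulated genes Ifit1, Ifit2, Ifit3, Rsad2, Cxcl10 and Isg15, with Lyz2 below 100 UMIs per 10000. In all, 506 of the 8018 cells that passed the filters met this rule, out of 6157 gated microglia, the cells that met every part of it other than the one on interferon genes. The 5651 gated microglia with at most 3 of the 6 interferon genes are called other microglia below.

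The cells came from mouse brain, from 4 single-cell RNA libraries that crossed 2 genotype labels with 2 surgeries. The wild-type mice were IL-6 +/+ and the knockout-labelled mice IL-6 -/-, all operated at 8 to 12 weeks of age. Injured mice received cerebrovascular injury (CVI), in which low-intensity ultrasound over a thinned patch of skull, given with circulating microspheres, damages the vessels beneath, and controls had sham surgery. Tissue was taken 6 days later with a 4 mm punch, and all 4 libraries hold cells picked with beads against CD11b, a surface protein of myeloid cells. The labels do not say which of 2 described injury strengths was used, whether animals were pooled, or which part of Il6 was deleted, and one protocol calls the controls uninjured where the sample labels give sham surgery. Each group was 1 library, so no difference between groups could be tested, and every interval given for a level, share or ratio is a 95% interval for counting error only.

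Type I interferons are cytokines made when cells sense nucleic acid out of place. They bind a receptor of the IFNAR1 and IFNAR2 chains, which signals through the kinases JAK1 and TYK2 to a transcription factor complex that includes STAT2 and IRF9. That complex binds a DNA element, the interferon-stimulated response element (ISRE), before a large set of genes that block viral replication, raise antigen presentation and recruit leukocytes. Microglia in this state are known from infection, ageing and injury.

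The 6 genes of the rule sit at 4 places in the genome (mm10 assembly, GENCODE vM21 annotation). Ifit2 (chromosome 19, 34550694 to 34576419), Ifit3 (34583531 to 34588731) and Ifit1 (34640871 to 34650009) form a cluster on the plus strand and encode proteins that bind foreign RNA. Rsad2, which encodes the antiviral enzyme viperin, lies on the minus strand of chromosome 12 (26442746 to 26456452). Cxcl10, a chemokine that draws cells bearing CXCR3, is on the minus strand of chromosome 5 (92346638 to 92348889), and Isg15, a ubiquitin-like protein attached to other proteins, on the minus strand of chromosome 4 (156199424 to 156200818). Ifit3 has a near-identical copy, Ifit3b, so the split of reads between these genes is uncertain.

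The promoters of the 6 genes are shown because the rule rests on these genes and 5 of them carry the response element there. Each window, from RefSeq on the GRCm38.p6 build, runs from 250 bases before the gene's start to 50 after it, 5′ to 3′ on the gene's own strand, with every match to the ISRE letters GAAANNGAAA, or TTTCNNTTTC on the other strand, in capitals.
Ifit1, chr19:34640639-34640938, plus strand: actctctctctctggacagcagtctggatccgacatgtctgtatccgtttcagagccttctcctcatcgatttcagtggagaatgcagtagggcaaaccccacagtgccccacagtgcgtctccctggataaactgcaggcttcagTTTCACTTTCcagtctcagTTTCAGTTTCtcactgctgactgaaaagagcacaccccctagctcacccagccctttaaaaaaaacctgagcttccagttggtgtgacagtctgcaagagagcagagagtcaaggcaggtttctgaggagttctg
Ifit2, chr19:34550444-34550743, plus strand: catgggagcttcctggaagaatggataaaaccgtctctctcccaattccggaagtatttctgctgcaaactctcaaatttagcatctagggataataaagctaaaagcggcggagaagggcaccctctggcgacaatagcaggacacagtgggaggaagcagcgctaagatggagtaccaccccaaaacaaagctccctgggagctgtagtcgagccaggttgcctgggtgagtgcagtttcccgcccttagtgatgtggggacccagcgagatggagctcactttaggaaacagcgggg
Ifit3, chr19:34583279-34583578, plus strand: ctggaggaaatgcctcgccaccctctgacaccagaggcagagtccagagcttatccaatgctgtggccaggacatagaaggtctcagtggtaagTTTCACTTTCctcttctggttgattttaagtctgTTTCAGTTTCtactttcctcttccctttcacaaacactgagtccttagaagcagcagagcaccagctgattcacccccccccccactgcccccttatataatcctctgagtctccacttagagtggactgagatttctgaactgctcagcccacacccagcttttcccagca
Rsad2, chr12:26456403-26456702, minus strand: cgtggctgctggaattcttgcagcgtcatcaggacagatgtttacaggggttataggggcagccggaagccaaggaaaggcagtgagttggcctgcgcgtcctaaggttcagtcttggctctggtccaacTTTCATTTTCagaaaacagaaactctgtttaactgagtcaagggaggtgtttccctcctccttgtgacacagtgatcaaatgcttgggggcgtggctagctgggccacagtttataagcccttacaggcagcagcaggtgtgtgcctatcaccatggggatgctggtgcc
Cxcl10, chr5:92348840-92349139, minus strand: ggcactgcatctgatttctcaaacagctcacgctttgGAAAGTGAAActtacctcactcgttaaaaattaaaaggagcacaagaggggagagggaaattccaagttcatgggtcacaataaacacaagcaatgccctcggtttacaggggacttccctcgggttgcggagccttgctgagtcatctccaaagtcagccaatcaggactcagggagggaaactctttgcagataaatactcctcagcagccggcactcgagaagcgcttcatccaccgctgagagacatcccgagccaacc
Isg15, chr4:156200769-156201068, minus strand: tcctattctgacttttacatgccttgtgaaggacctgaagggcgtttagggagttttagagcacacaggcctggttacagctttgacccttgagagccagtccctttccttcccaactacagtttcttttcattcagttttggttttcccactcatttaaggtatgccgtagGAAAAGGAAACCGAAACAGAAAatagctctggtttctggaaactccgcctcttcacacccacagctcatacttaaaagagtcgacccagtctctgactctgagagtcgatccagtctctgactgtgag

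The Ifit1 window held 2 matches, beginning 104 and 85 bases before the start, and the Ifit3 window 2, at 156 and 122 bases. Rsad2 had 1 match at 120 bases, Cxcl10 had 1 at 213 bases, and Isg15 had 3 overlapping matches in 1 run that begins 78 bases before the start. Neither of the 2 Ifit2 windows in the table held these letters. So 5 of the 6 genes carried a match, against 3.43% of all 32817 windows of this length and 3.99% of the 8887 tested genes that the table holds. A match is a run of letters and not a measured binding site.

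The label was checked against markers of microglia and of the other cells the CD11b selection could bring along. In the injured libraries all 11 genes of a microglial marker list were detected in the interferon-responsive cells, at a summed 7685 and 10447 CPM (counts scaled to the same total of UMIs) in the wild-type and the knockout-labelled library, against 9341 and 12167 CPM in the other microglia. The rule did not use 7 of these genes, and at least 3 of the 7 were found in 243 of 243 injured wild-type and 248 of 252 injured knockout-labelled cells. Most injured cells thus carried microglial genes beyond those of the rule. The same check passed all 7 wild-type sham cells and 2 of the 4 knockout-labelled sham cells. It thereby passed cells with border-associated macrophage genes, given next, and does not by itself settle the label. The label was less clear for the few sham cells. Of the 7 wild-type sham cells, 2 carried 43 and 26 UMIs of Mrc1, a gene of border-associated macrophages, beside 2 and 3 UMIs of P2ry12. Of the 4 knockout-labelled sham cells, 2 carried 460 and 134 UMIs of Cldn5, a tight-junction gene of endothelium, beside 1 UMI of P2ry12 each, and the other 2 had 68 and 31 UMIs of P2ry12 and none of Cldn5. Neutrophil genes summed to 7720 CPM in the wild-type sham cells against 1339 CPM in the other microglia, with at least 3 of the 8 genes in 1 of the 7 cells, and to 251 against 331 CPM in the injured wild-type library. The part of that cell was not tested, and counts of calls without the wild-type sham library are given with the comparison.

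Markers of other cells were also somewhat more frequent in the injured interferon-responsive cells than in the other microglia. At least 3 of 8 endothelial genes were found in 5 (2.06%) and 8 (3.17%) of the injured wild-type and knockout-labelled cells, against 0.801% and 0.870% of the other microglia, with summed levels of 1104 and 989 against 580 and 601 CPM. At least 3 of 8 border-associated macrophage genes were found in 4.12% and 3.97%, against 2.29% and 0.921%, at 216 and 198 against 165 and 70.7 CPM, with Cd163, Lyve1 and Cd209f at 0 in the injured wild-type cells. At least 3 of 9 monocyte genes were found in 10.3% and 9.92%, against 3.43% and 2.76%, at 3366 and 1922 against 2527 and 1361 CPM. That list holds Lyz2, which the rule capped. Lyz2 alone made up most of the sums in the interferon-responsive cells, at 3181 and 1802 CPM. At least 3 of 8 plasmacytoid dendritic genes, a list that holds the interferon-induced Bst2, were found in 38.3% and 29.0%, against 19.9% and 20.1%, at 958 and 1132 against 692 and 742 CPM, with Ly6d and Klk1 at 0 in all of these cells. At least 3 of 7 oligodendrocyte genes were found in 12.8% and 18.3%, against 5.67% and 7.63%, but their summed levels were 114 and 156 against 128 and 159 CPM. All 8 T and NK cell genes were at 0 in the interferon-responsive cells of both injured libraries. The part of these markers in the results was not tested. Results that they could touch are also given without the cells that carried at least 3 endothelial or at least 3 border-associated macrophage genes, called mixed-marker cells below, a limit chosen after the data were seen. It removed 2, 15, 2 and 18 interferon-responsive cells (wild-type sham and injured, then knockout-labelled sham and injured).

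The libraries held 10264446 to 37794675 UMIs in analysed cells. The interferon-responsive cells were read more deeply than the other microglia, with a median of 14969 UMIs (range 3556 to 72082) against 8946 in the injured wild-type library and 13238.5 (1024 to 72379) against 8736.5 in the injured knockout-labelled one. A rule that counts detected genes picks deeper cells, so these cells and the other microglia differ in depth. Among the injured interferon-responsive cells depth did not rise steadily with the number of genes. Median UMIs with 4, 5 and 6 genes were 15109, 15211 and 14663.5 (wild-type) and 13424.5, 13953.5 and 11424.5 (knockout-labelled). Mitochondrial shares were close, at medians of 3.93% against 4.07% and 4.55% against 4.52%. The cells with the highest doublet scores included 3 (1.23%) and 5 (1.98%) of the injured interferon-responsive cells, against 1.89% and 2.46% of the other microglia. They included none of the sham interferon-responsive cells. Of the analysed barcodes, 30 occurred in more than 1 library, 23 of them in both sham libraries. No barcode was an interferon-responsive cell in both of 2 libraries.

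The Il6 gene does not check the genotype labels in these data. Il6 UMIs were present in knockout-labelled libraries, with 6 in the sham and 90 in the injured interferon-responsive cells, against 0 and 23 in the wild-type ones. These tags come from the 3′ end of transcripts, and whether the deletion removes that end was not given. The libraries are therefore called knockout-labelled.

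Interferon-responsive microglia were scarce after sham surgery and were over 10% of the gated microglia at 6 days after injury, under either genotype label. They were 7 of 772 gated microglia in the wild-type sham library (0.907%, 0.365 to 1.86%) and 243 of 1990 in the injured wild-type library (12.2%, 10.8 to 13.7%). In the knockout-labelled libraries they were 4 of 1189 after sham surgery (0.336%, 0.0917 to 0.859%) and 252 of 2206 after injury (11.4%, 10.1 to 12.8%). The 2 injured libraries lay within each other's counting intervals, and both lay above both sham libraries. The shares without the mixed-marker cells were 0.690%, 11.9%, 0.173% and 10.9% in the same order.

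With every cell thinned to 5000 UMIs the shares fell and kept their order between sham and injured. They were 4 of 609 (0.657%) and 78 of 1436 (5.43%) in the wild-type libraries, and 0 of 955, which allows up to 0.314%, and 105 of 1796 (5.85%) in the knockout-labelled ones. Thinning left out 157 and 270 wild-type and 225 and 316 knockout-labelled gated microglia that were shallower, in the order sham and injured, and 6 and 9 of them were interferon-responsive cells of the injured libraries.

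**Figure D1:**
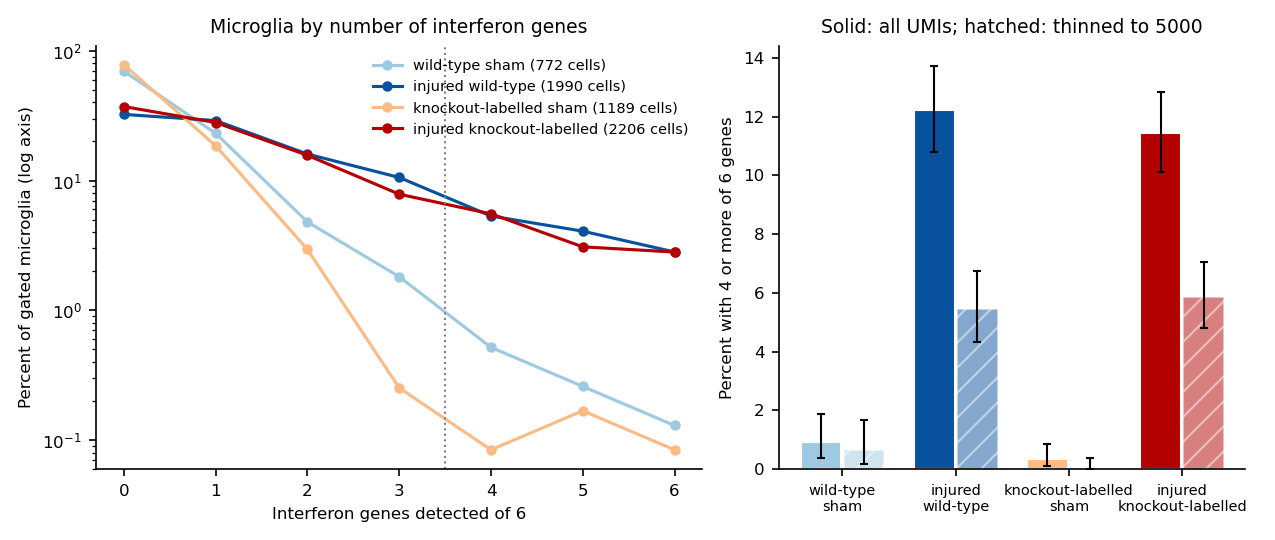
Left, percent of gated microglia of each library, on a log axis, by the number of the 6 interferon genes detected, with a dotted line at the limit of the rule. Right, percent with at least 4 of the genes at full depth (solid) and with each cell thinned to 5000 UMIs (hatched), from 0, with exact 95% binomial intervals for counting error: the injured libraries stand at 12.2% and 11.4%, and at 5.43% and 5.85% after thinning, and both sham libraries stay below 1%.

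The 6 genes differed widely in level and in how evenly the cells held them. Cxcl10 was the most abundant in the injured interferon-responsive cells, and it was also uneven. Its level in these cells was 681 CPM in the wild-type sham library, 1004 CPM in the injured wild-type, 71.6 CPM in the knockout-labelled sham and 1555 CPM in the injured knockout-labelled library. A UMI of Cxcl10 was found in 69.5% and 68.3% of the injured wild-type and knockout-labelled cells, and the highest 10% of the cells held 59.4% and 66.1% of its UMIs. The median cell had 2.41 and 1.54 Cxcl10 UMIs per 10000 and the highest cell 214 and 565. Isg15 was spread most evenly: it was found in 96.7% and 96.4% of injured cells, at 747, 373, 509 and 490 CPM in the same 4 libraries, and the highest 10% of cells held 43.3% and 37.7% of its UMIs.

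Among the RNA-binding Ifit genes, Ifit3 stood highest in the injured cells, at 538, 319, 111 and 483 CPM in the same order of libraries (wild-type sham and injured, then knockout-labelled sham and injured). Ifit2 was at 143, 187, 47.8 and 242 CPM and Ifit1 at 329, 147, 215 and 168 CPM in that order. Rsad2, the viperin gene, was at 143, 240, 47.8 and 156 CPM. The sham values rest on 7 and 4 cells, of which 2 and 2 were mixed-marker cells, and no order is read from them. Levels of different genes are set side by side in CPM without a length term, since each 3′ tag counts 1 transcript whatever its length.

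Because the rule used these genes, their levels against the other microglia are a description. In the wild-type and knockout-labelled injured libraries the other microglia held Ifit1 at 7.74 and 6.74 CPM, Ifit2 at 13.4 and 16.3, Ifit3 at 25.9 and 33.6, Rsad2 at 8.11 and 4.55 and Isg15 at 65.7 and 66.3. Cxcl10 was different in that the other microglia also held a good deal of it, at 324 and 260 CPM after injury and 95.5 and 102 CPM after sham surgery. Summed over the 6 genes, the median interferon-responsive cell had 13.2 UMIs per 10000 in the injured wild-type library (lowest 1.77, highest 305) and 15.5 in the injured knockout-labelled one (0.870 to 730).

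The limit of 4 genes cut through a continuous range. Of the injured wild-type cells, 106 had 4 of the genes, 81 had 5 and 56 had all 6. The injured knockout-labelled library had 122, 68 and 62. Just outside the limit, with 3 genes, were 210 and 173 cells, with a median of 6.11 and 6.57 UMIs of the 6 genes per 10000. Just inside it the medians were 8.74 and 9.20, and in cells with all 6 genes they were 42.1 and 73.5. At the Lyz2 limit, 30 and 8 cells lay between 50 and 100 UMIs per 10000 and 20 and 5 otherwise matching cells between 100 and 200.

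**Figure D2:**
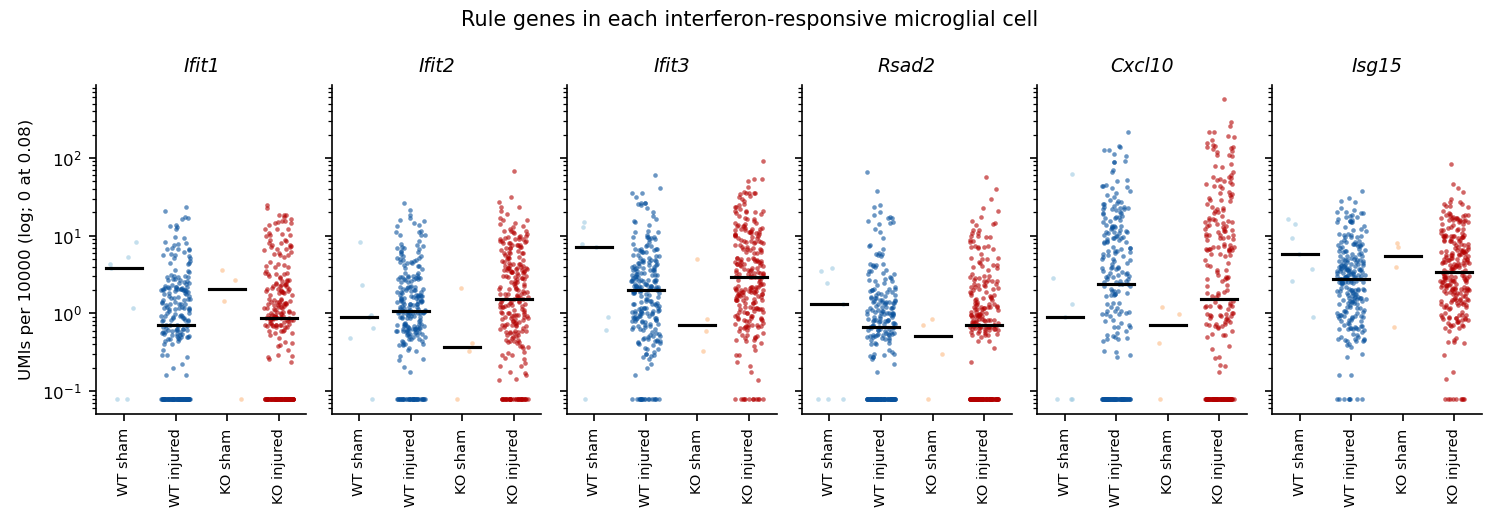
UMIs of each of the 6 interferon genes per 10000 in every interferon-responsive cell, on a log axis with cells at 0 drawn at 0.08, for the wild-type (WT) and knockout-labelled (KO) libraries, with 1 point per cell and a bar at the median. The injured libraries hold 243 and 252 cells and the sham libraries 7 and 4, and Cxcl10 has the highest single cells, at 214 and 565.

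All genes were compared between interferon-responsive and other microglia within the same library, in the 3 libraries with at least 5 such cells (7, 243 and 252). Of 11260 genes tested, 400 (3.55%) were higher and 95 (0.844%) lower at an adjusted p under 0.05 (edgeR's quasi-likelihood test on summed counts with library as a block, Benjamini-Hochberg adjusted). These counts include the 11 genes of the rule, of which 7 were higher and 3 lower. Without them and the genes on interferon lists, 317 of 11133 genes were higher and 91 lower. The cells were picked on genes measured in the same cells, and depth moved with the picking, so these tests are not independent of the rule. Counts for the genes on interferon lists are given as a description. Each count is followed by that against other microglia matched on total UMIs in the same 3 libraries.

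The counts of calls moved with the libraries used. Without the wild-type sham library, with its 7 cells, 955 genes were higher and 399 lower, while leaving out the injured wild-type library gave 143 and 4 and leaving out the injured knockout-labelled one 112 and 8. With all 4 libraries the counts were 12 and 0. Without the mixed-marker cells they were 459 and 149, and against depth-matched microglia 205 and 11. Against depth-matched microglia in the injured libraries alone they were 422 and 74. Matching kept 42 wild-type sham, 246 injured wild-type and 374 injured knockout-labelled other microglia, so fewer cells entered that comparison.

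Interferon ligands were nearly absent. Of 21 interferon genes, 1 to 3 had any UMI in the interferon-responsive cells of 3 libraries and none had any in the knockout-labelled sham cells. Ifnb1, the interferon-beta gene, had 1 UMI in the wild-type sham cells, 1 in the injured wild-type cells, 0 in the knockout-labelled sham cells and 16 in the injured knockout-labelled cells. Of those 16, 13 were in 1 cell and the rest in 2 others. Levels this low do not order the libraries.

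Of the receptor chains and signal transducers, Stat2 was called higher and no receptor gene was. Values here and below follow the order wild-type sham, then the wild-type and the knockout-labelled library after injury. Stat2 stood at 32.9 CPM in wild-type sham, 54.9 CPM in injured wild-type and 64.4 CPM in injured knockout-labelled interferon-responsive cells, against 12.2, 19.0 and 18.1 CPM in the other microglia. In every one of the 3 libraries it was above the other microglia, at a log2 fold change of 1.70 ± 0.11 (± SE). The sham value of Stat2 rests on 3 UMIs, and its interval (6.79 to 96.3 CPM) holds the 12.2 CPM of the other microglia. The receptor genes Ifnar1 and Ifnar2 were at log2 fold changes of 0.03 and -0.03, and the kinase genes Jak1 and Tyk2 at -0.07 and 0.04. Irf9, its partner in the complex, was at 0.37 and Ifngr1, a receptor chain for interferon-gamma, at -0.44 ± 0.10. Of 10 such genes tested, 1 was called higher and 1 lower, and 2 and 0 when depth was matched, where Irf9 was at 0.51.

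Among 7 interferon regulatory factors, Irf7 was the 1 gene called higher, also with depth matched. It encodes the factor that amplifies the interferon response and is itself induced by it. Irf7 was at 121, 180 and 214 CPM against 4.29, 54.5 and 54.8 CPM, a log2 fold change of 1.93 ± 0.15. In the sham library the other microglia held little Irf7. The 121 CPM of the interferon-responsive cells there is 11 UMIs in 4 of the 7 cells, 5 of them in 1 cell. The gap in that library is therefore not ranked against those after injury. Irf1 stood at 0.40 and Irf8, a lineage factor of microglia, at 0.01.

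Antiviral effectors made up the largest block. Outside the rule, 48 of 58 were called higher and none lower, with a median log2 fold change of 1.22 against -0.01 for all genes, and 43 were called with depth matched. Ifit3b, the copy beside Ifit3, was at 132, 30.3 and 54.6 CPM against 0.330, 2.21 and 3.66, a log2 fold change of 4.13 ± 0.33. Slfn4 was at 76.9, 2.71 and 0.257 CPM against 1.65, 0.158 and 0, a log2 fold change of 4.86. Only its wild-type sham level, from 7 cells, was more than a few CPM. Oasl1 and Oas3, of the family that senses double-stranded RNA, had log2 fold changes of 3.84 and 3.34.

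The interferon-induced GTPases, which attack the vacuoles of intracellular microbes, followed with 9 of 10 called higher, and 8 with depth matched. Iigp1 was at 32.9, 31.6 and 56.1 CPM in interferon-responsive cells against 0.660, 1.58 and 1.99 CPM. Its log2 fold change was 4.65 ± 0.21, and those of Irgm1, Gbp2 and Igtp were 1.75, 1.75 and 1.42. The genes of ISG15 conjugation and feedback included 4 of 7 called higher. The largest was Usp18, the protease that removes ISG15 and restrains the receptor, at 54.9, 79.9 and 111 CPM against 2.75, 16.4 and 18.3 (2.50 ± 0.12). Herc6, the mouse ligase for ISG15, was at 1.83 ± 0.12.

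Of 21 nucleic acid sensors, 12 were called higher and none lower, and 11 with depth matched. Most of those with the largest fold changes belonged to the DNA-binding PYHIN family, whose members are near-identical in places, so that their counts may be split. Ifi211 was at 76.9, 35.5 and 34.2 CPM against 0.990, 4.53 and 2.72, Ifi204 at 176, 248 and 312 against 10.0, 77.8 and 71.5, and Zbp1, which senses unusual nucleic acid forms, at 143, 94.2 and 109 against 4.40, 31.5 and 22.7. Ddx58, which encodes the RNA sensor RIG-I, was at 110, 51.9 and 69.8 against 21.7, 19.6 and 22.3 CPM. All 4 were above the other microglia in each of the 3 libraries.

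Response elements were also more frequent before the genes of the interferon lists than before all genes. Of the genes called higher on the interferon lists, outside the rule, 31 of the 62 found in the promoter table (50%) had an ISRE match, against the 3.99% of all genes tested. The interferon-stimulated lists are narrower and leave out the receptors and signal transducers, the regulatory factors and the nucleic acid sensors. Among their tested genes outside the rule, called or not, 27 of 63 (42.9%) had an ISRE match. The 62 called genes came in part from the lists left out here, so 50% and 42.9% are not shares of the same lists. Genes called higher outside the rule and the lists had a match in 27 of 256 (10.5%) and genes called lower in 4 of 64 (6.25%).

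**Figure D3:**
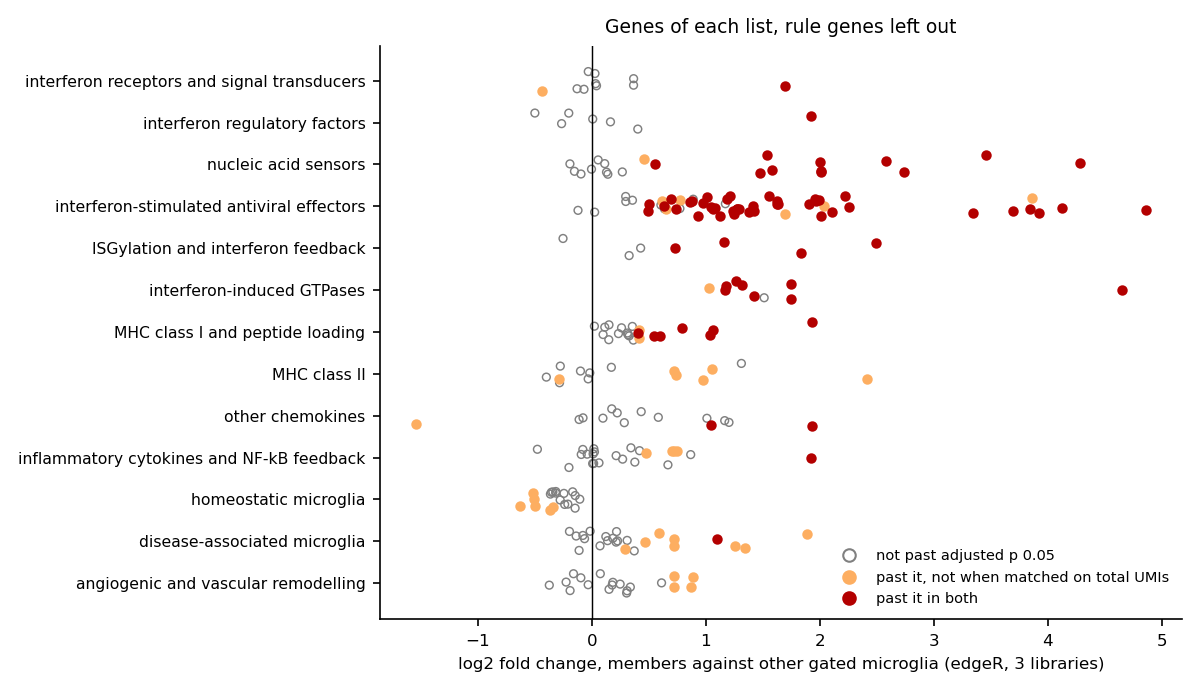
Log2 fold change of each tested gene of 13 lists, rule genes left out, in interferon-responsive against other gated microglia, 1 point per gene, placed at random within its row. Red genes passed the adjusted p of 0.05 also with depth matched, orange genes only without matching, and open genes in neither; the antiviral effectors are mostly red, with 48 and 43 of 58 called, while all 6 called homeostatic genes are orange.

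Outside the interferon lists, some antigen presentation genes of class I rose. Of 21 genes of MHC class I and peptide loading, 9 were called higher and none lower, and 7 with depth matched. Nlrc5, the activator of class I genes, was at 32.9, 11.3 and 22.1 CPM against 1.54, 4.53 and 4.86 (log2 fold change 1.93 ± 0.34, adjusted p = 0.00341). The peptide transporter gene Tap1 was at 198, 88.3 and 125 CPM against 26.1, 50.4 and 60.1 (1.04 ± 0.13, adjusted p = 0.000235, and 0.000127 with depth matched). H2-T24 and H2-T22, both non-classical class I genes, had log2 fold changes of 1.06 and 0.79.

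MHC class II genes behaved otherwise. Of 14, 5 were called higher and 1 lower, and 0 in either direction with depth matched. H2-Aa was at 527, 114 and 213 CPM against 59.6, 96.8 and 84.1, and all 48 UMIs behind the sham value were in 1 of the 7 cells. In the injured libraries its UMIs were in 18 of 243 and 17 of 252 injured cells, with 213 of 504 and 316 of 827 in 1 cell each. Cd74, the class II chaperone, was at 944, 197 and 429 CPM against 153, 167 and 232, with a log2 fold change of 0.97 ± 0.24 that was 0.46 with depth matched (adjusted p = 0.034 and 0.287). Of its 86 UMIs in the wild-type sham cells, 78 were in 1 cell.

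Of 14 chemokines other than the CXCR3 ligands, the monocyte-attracting Ccl12 and Ccl2 rose. Ccl12 was at 1461 CPM in the wild-type sham cells, 622 in the injured wild-type and 1110 in the injured knockout-labelled cells against 130, 274 and 335 CPM, a log2 fold change of 1.93 ± 0.25 (adjusted p = 0.000208, and 3.11e-07 with depth matched). Ccl2 was at 681, 437 and 448 CPM against 172, 280 and 221 (1.04 ± 0.15, adjusted p = 0.000531, and 5.39e-05 with depth matched). Both were higher than in the other microglia in all 3 libraries. In the wild-type sham cells, though, 66 of 133 Ccl12 UMIs and 40 of 62 Ccl2 UMIs were in 1 cell each. Cxcl13, a B cell chemokine, fell by 1.54 at 2.94 and 5.66 against 9.95 and 15.2 CPM in the injured libraries and changed direction with depth matched, at 0.97. Without the mixed-marker cells 7 of the 14 were called higher and 1 lower, the others being Ccl3, Ccl4, Ccl5, Ccl7 and Cxcl2 at log2 fold changes of 0.30 to 0.87.

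Of 23 inflammatory cytokine and NF-κB feedback genes, 5 were called higher and none lower, and 2 with depth matched. Tnfsf10, the death ligand TRAIL, was at 7.90 and 10.8 CPM against 2.16 and 2.40 in the injured libraries and at 0 in the wild-type sham cells (log2 fold change 1.92 ± 0.42, adjusted p = 0.0136). Il1rn, Il15 and Ptgs2 had log2 fold changes of 0.75, 0.72 and 0.71, and of 0.32, 0.58 and 0.20 with depth matched. Of 21 genes of phagocytosis and complement, 5 were called higher, among them the Fc receptor genes Fcgr4 (0.83 ± 0.13) and Fcgr1 (0.60 ± 0.10) and the signal against engulfment Cd47 (0.62 ± 0.11). Those 3 were also called with depth matched.

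In the 3 libraries together, genes of resting microglia were called lower before depth was matched and not after. Of 19 homeostatic genes outside the rule, 6 were called lower and none higher, with a median log2 fold change of -0.32, and with depth matched 0 were called and the median was -0.13. Slc2a5, a fructose transporter, was at 187, 33.9 and 82.1 CPM against 264, 61.0 and 118 (-0.63 ± 0.10, and -0.13 with depth matched). Selplg and Cst3 had log2 fold changes of -0.52 and -0.50, and of -0.20 and -0.23 with depth matched. P2ry12, the ADP receptor used by the rule, was at 1537, 473 and 918 CPM against 2230, 728 and 1216.

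Genes of disease-associated microglia, a state known from plaques and demyelination, showed the same loss of calls. Of 24, 9 were called higher and none lower, and with depth matched 1 was higher (Apoc1) and 1 lower (Spp1). Gpnmb, a lysosomal glycoprotein, went from 1.35 ± 0.14 to 0.05 with depth matched and Fabp5 from 0.72 to -0.17. Cd5l, a lipid-binding protein of macrophages, was at 476 and 43.8 CPM against 204 and 3.61 in the injured libraries (1.89 ± 0.30, adjusted p = 0.00137, and 1.03 with an adjusted p of 0.187 with depth matched). The angiogenic list had 4 of 19 called higher (Fn1, Thbs1, Anxa2 and Igf1) and 0 with depth matched, where their log2 fold changes were 0.06, 0.47, -0.13 and -0.03.

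The IL-6 family and STAT3 list, given because of the genotypes compared, had 2 of 13 genes called higher and 1 lower, and none with depth matched. They were Ccnd1 (0.51 ± 0.14) and Pim1 (0.42 ± 0.09), a cyclin and a kinase, and the receptor gene Il6ra (-0.50 ± 0.10). Il6ra was at 165, 72.3 and 107 CPM against 290, 105 and 143. No gene of 21 in S phase or of 21 in G2/M was called. At least 2 of 10 genes of dividing cells were found in 14% and 6.75% of the injured wild-type and knockout-labelled interferon-responsive cells, against 7.73% and 3.58% of the other microglia. At 5000 UMIs per cell the shares were 5.49% (2.95 to 9.20%) and 3.29% against 4.59% and 2.43%.

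Of the 12 genes with the largest fold changes outside the rule and the lists, 5 were of families known to be induced by interferon. They were the PYHIN genes Ifi208 (5.17 ± 0.67), Ifi206 (3.31 ± 0.28), Ifi213 (2.77 ± 0.36) and Ifi209 (2.67 ± 0.21), and Phf11a (2.50 ± 0.32). Ifi209 had a UMI in 118 and 146 injured cells. The other 7 are known from blood vessel endothelium or were held by few cells: Fam13c, Slc1a1, Heg1, Epas1, Thbd, Egfl7 and Cd93, found in 3 to 12 injured cells per library. With at least 5 interferon genes required, Heg1, Epas1 and Fam13c turned to log2 fold changes of -0.36, -0.64 and -0.09. Endothelial markers moved with these genes, as given above. Without the mixed-marker cells all 7 fell below the filter on low counts, and in the injured libraries alone Epas1, Egfl7 and Cd93 were tested and not called, at 0.62, 0.62 and 1.00.

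The genes named for the most negative fold changes were led by Nnat and Ptgds, which were found in few cells. Nnat was at 0, 0.677 and 3.604 CPM against 4.73, 3.11 and 19.5 (-2.37 ± 0.35), and was the 1 of these 12 also called with depth matched. The other 10 after Ptgds were Upk1b, Bank1, Nrgn, Tnfrsf17, Garnl3, Abca9, Chst7, Klk8, Slc2a5 and Zbtb2, between -1.26 and -0.63. Of the 317 genes called higher outside the rule and the lists, 115 were also called with depth matched, and of the 91 called lower, 3 were.

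Across all gated microglia of the injured libraries, the levels of Usp18 and Slfn5 were higher at each further interferon gene detected, on both sides of the limit. Usp18 went from 8.85 CPM in injured wild-type cells with none of the 6 genes to 33.3 CPM with 3 and 142 CPM with all 6, and in the injured knockout-labelled library from 7.92 to 43.0 and 256 CPM. Slfn5, a growth-restraining Schlafen gene, went from 25.8 to 100 and 323 CPM, and from 19.8 to 150 and 504 CPM. Irf7 went from 24.5 CPM with none to 302 CPM with all 6, and from 17 to 363 CPM, but was lower with 4 genes than with 3, at 102 against 113 and 138 against 155 CPM. Bst2, which encodes tetherin, also stood lower with 4 than with 3, at 625 against 726 and 714 against 798 CPM.

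Ifi27l2a was already at 380 and 261 CPM in cells with none of the genes and reached 705 and 603 CPM in cells with 3 and 636 and 724 CPM in cells with all 6. H2-K1, a classical class I gene, moved from 1216 to 1665 and from 1250 to 1929 CPM between none and all 6. The chemokine gene Ccl12 stayed between 242 and 359 CPM in injured wild-type cells with 0 to 4 genes and reached 1224 CPM with all 6. In the knockout-labelled library it was at 235, 328, 452, 418 and 574 CPM with 0 to 4 genes and at 2508 CPM with all 6. P2ry12 fell between none and all 6, from 979 to 382 and from 1465 to 961 CPM. Cells with none of the genes were shallower, with a median of 7063 UMIs in the injured wild-type library against 13451.5 with 3 genes and 14663.5 with all 6. In the injured knockout-labelled library the medians were 7249, 11811 and 11424.5 UMIs. The part of depth in these levels was not tested.

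**Figure D4:**
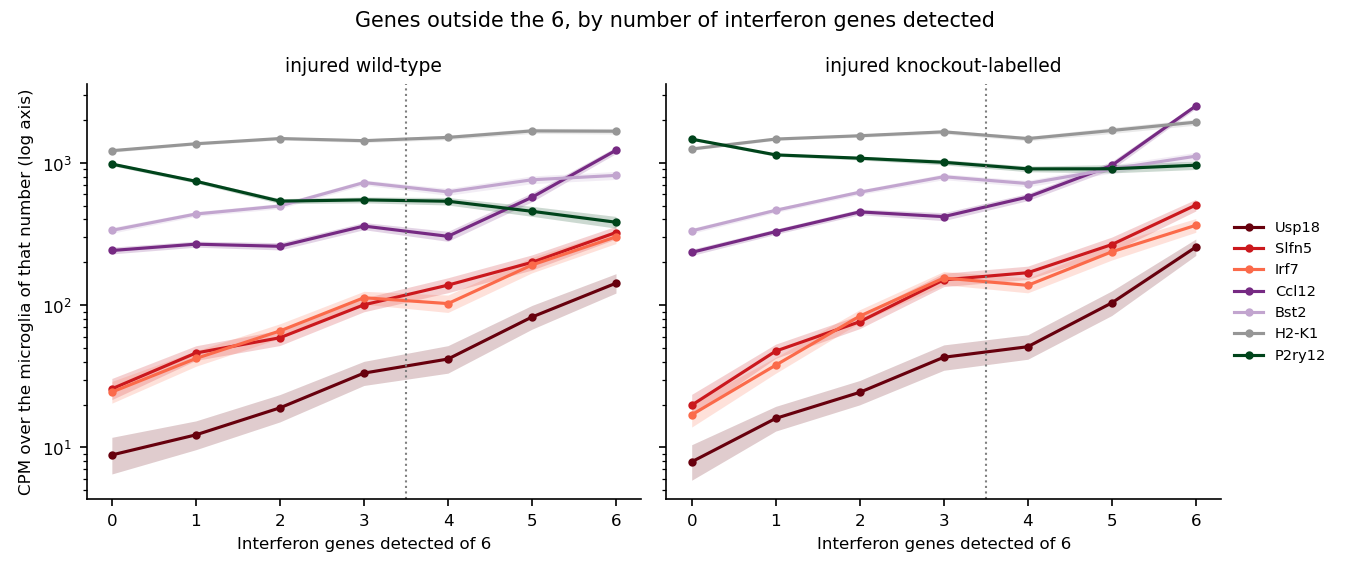
Level in CPM, on a log axis, of 7 genes that are not among the 6 interferon genes of the rule, over all gated microglia of each injured library with 0 to 6 of those genes detected, with 95% counting intervals as bands and a dotted line at the limit of the rule. Usp18 rises from 8.85 to 142 CPM (wild-type) and from 7.92 to 256 CPM (knockout-labelled), and P2ry12 falls from 979 to 382 and from 1465 to 961 CPM.

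The question the genotypes pose is whether the state differs when IL-6 is missing, and the 2 injured libraries can be set side by side for it without a test. Most interferon genes named here were at similar or higher summed levels in the knockout-labelled cells, with Rsad2, Cmpk2 and the sparse Slfn4 lower. Of 24 genes of disease-associated microglia, 10 were at least 1.5-fold lower, where 1.98% of all genes were. In the other microglia 10 of the 24 were also that much lower and 1 was higher. Of 5553 genes, 19 (0.342%) stood 2-fold or more above, and 35 (0.63%) 2-fold or more below, the injured wild-type level in the injured knockout-labelled interferon-responsive cells, on a scale with 10 CPM added, where the median of all genes was 0.09 (log2). Without the mixed-marker cells the counts were 15 and 39. With median-of-ratios scaling, which moved the median to -0.04, they were 10 and 45, so the share of calls that were higher fell from 35.2% to 18.2%.

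The 6 rule genes, given as a description, did not move in 1 direction. The ratio of the knockout-labelled to the wild-type level was 1.14 (1.02 to 1.27) for Ifit1, 1.29 (1.18 to 1.42) for Ifit2 and 1.51 (1.41 to 1.62) for Ifit3. It was 1.55 (1.49 to 1.61) for Cxcl10 and 1.31 (1.23 to 1.40) for Isg15. Rsad2 went the other way at 0.650 (0.587 to 0.719), but the highest 10% of injured wild-type cells held 75.4% of its UMIs there, and 180 of 1063 were in 1 cell. The median cell had 0.660 Rsad2 UMIs per 10000 in the injured wild-type and 0.716 in the injured knockout-labelled library. The lower summed level was thus not seen in the median cell. Nor was the higher summed level of Cxcl10, whose medians were 2.41 and 1.54 UMIs per 10000 in the same order. The highest 10% of cells held 59.4% and 66.1% of the Cxcl10 UMIs. Cmpk2, the neighbour of Rsad2, is a mitochondrial nucleotide kinase transcribed from the other strand at 26469204 to 26479837. It was at 39.5 and 25.2 CPM, a ratio of 0.638 (0.493 to 0.822).

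Among the interferon lists with at least 6 genes tested, the GTPases had the largest share of members past 1.5-fold. Of 9 tested, 6 were at least 1.5-fold higher and none lower in the knockout-labelled cells, where 3.12% of all genes were that much higher and 1.98% lower, with a median log2 ratio of 0.61. In the other microglia of the same libraries the median for these genes was 0.17. Gbp7 was at 24.8 and 60.0 CPM in the wild-type and knockout-labelled injured interferon-responsive cells (ratio 2.42, 1.92 to 3.06) and at 15.1 and 18.2 CPM in the other microglia. Gbp2 was at 23.7 and 52.3 CPM (2.20, 1.73 to 2.82), against 7.84 and 15.2 in the other microglia. Iigp1 was at 31.6 and 56.1 CPM (1.77, 1.43 to 2.21), with UMIs in 36 of 243 and 65 of 252 cells. When the mixed-marker cells were left out, 4 of the GTPases were at least 1.5-fold higher.

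The antiviral effectors had 5 of 46 at least 1.5-fold higher and 2 lower, with a median of 0.37, against 0.13 in the other microglia. The genes of ISG15 conjugation and feedback had none of 7 past 1.5-fold in either direction, and Usp18 and Irf7 had ratios of 1.38 and 1.19. Among chemokines, Ccl12 was at 622 and 1110 CPM (1.79, 1.70 to 1.87) and Ccl2 at 437 and 448 CPM (1.02, 0.960 to 1.09). Ccl5 was at 61.2 and 146 CPM, but 139 of its 568 knockout-labelled UMIs were in 1 cell, and it was found in 60 and 59 cells. MHC class II had 8 of 10 genes at least 1.5-fold higher, but single cells held much of them. Cd74 was at 197 and 429 CPM, found in 76 and 111 cells, with 292 of 873 and 460 of 1665 UMIs in 1 cell each. Leaving out the mixed-marker cells left 3 class II genes that much higher, with Cd74 at 214 and 277 CPM.

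The genes lower in the knockout-labelled cells were led by Spp1, which encodes osteopontin. Spp1 was at 13127 CPM in injured wild-type and 854 CPM in injured knockout-labelled interferon-responsive cells, 15.4-fold lower (14.8 to 15.9), and was found in 220 of 243 and 110 of 252 cells. In the other microglia it was at 8955 and 824 CPM. Cd5l was at 476 and 43.8 CPM (10.9-fold lower, 9.29 to 12.8), against 204 and 3.61 CPM in the other microglia. Both were thus lower in the knockout-labelled library inside and outside the interferon state.

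The other genes named for the smallest ratios were also at lower levels in the other microglia of the injured knockout-labelled library. Of the 35 genes that stood 2-fold or more below the wild-type level in the interferon-responsive cells, 27 did so in the other microglia as well. Apoc1 was at 244 and 36.3 CPM, Apoc2 at 167 and 40.4 and Apoc4 at 53.7 and 9.27 CPM, all 3 of them apolipoprotein genes. In the other microglia Apoc1 was at 113 and 18.7 CPM, Apoc2 at 116 and 20.3 and Apoc4 at 32.5 and 4.86 CPM. Fabp5, a fatty acid carrier, was at 948 and 241 CPM and Plin2, which coats lipid droplets, at 502 and 130 CPM, against 636 and 137 CPM (Fabp5) and 333.6 and 74.96 CPM (Plin2) in the other microglia. Apoe, the main lipid carrier of brain, was at 52351 and 20987 CPM, a ratio of 0.401, and at 40787 and 13024 CPM in the other microglia. Wfdc17 was at 231 and 52.8 CPM, and the acute-phase gene Saa3 at 28.7 and 0.515 CPM, found in 33 cells and 1 cell. Gpnmb was at 564 and 165 CPM, with 356 of its 641 knockout-labelled UMIs in 1 cell.

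The list of disease-associated microglia genes had 10 of 24 at least 1.5-fold lower and none higher, with a median of -0.39. In the other microglia 10 were lower and 1 higher, with a median of -0.42. The angiogenic list had 5 of 12 lower and none higher, with Igf1, a growth factor, at 437 and 134 CPM and Fn1, fibronectin, at 92.6 and 33.2 CPM. Its median was -0.37, and in the other microglia 5 were also lower and none higher, with a median of -0.31. Homeostatic genes had 6 of 19 higher and none lower, with a median of 0.41 against 0.38 in the other microglia, where 3 were higher and none lower. Selplg was at 431 and 949 CPM, against 699 and 1285 in the other microglia.

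The genes at least 2-fold higher in the knockout-labelled cells were fewer and in part came from single cells. Lag3, an inhibitory receptor, was at 88.7 and 220 CPM (2.48, 2.20 to 2.80), found in 159 and 213 cells, and at 142 and 274 CPM in the other microglia. Ighm, the heavy chain of IgM, was at 82.4 and 202 CPM (2.45, 2.16 to 2.78) and Klk8, a protease, at 24.6 and 67.2 CPM (2.73, 2.17 to 3.45). Il6 itself was at 5.19 and 23.2 CPM (4.46, 2.80 to 7.39), found in 13 and 42 cells. Of the others, all 110 Dcn UMIs and 113 of 119 Mgp UMIs in the knockout-labelled cells were in 1 cell each, as were 63 of 101 Gfap UMIs, and Mrc1 was in 10 cells. Without the mixed-marker cells Mrc1 turned to a log2 ratio of -0.56, and Ccl5 and Igfbp4 were at 0.65 and 0.83, short of 2-fold.

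**Figure D5:**
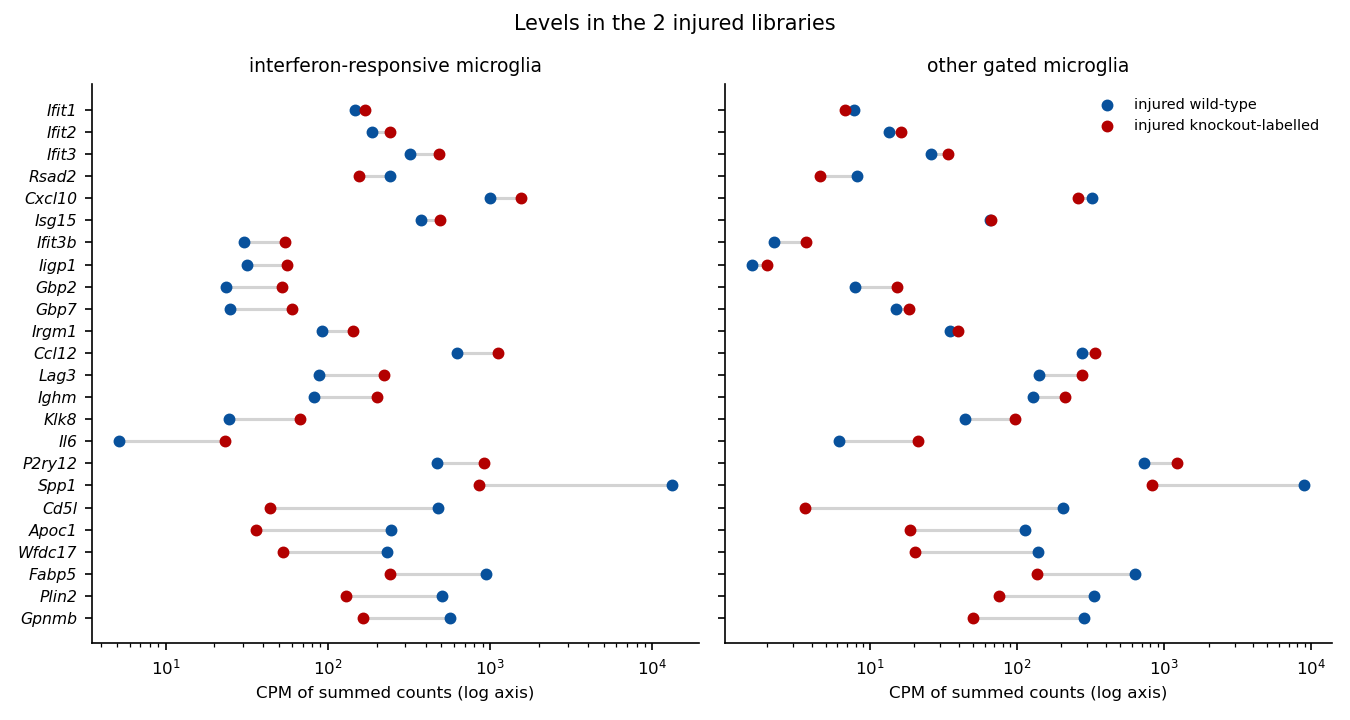
CPM of summed counts, on log axes, of 24 genes in interferon-responsive (left) and other gated microglia (right) of the injured wild-type (blue) and injured knockout-labelled (red) libraries, 1 library per point. Spp1 goes from 13127 to 854 CPM in interferon-responsive cells and from 8955 to 824 CPM in the others, and Gbp7 from 24.8 to 60.0 CPM and from 15.1 to 18.2 CPM.

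Cells outside the gate also carried the 6 genes. At least 4 of them were found in 5, 148, 16 and 59 further cells (wild-type sham and injured, then knockout-labelled sham and injured), of which 50 and 7 in the injured libraries had at least 2 microglial genes but too much Lyz2. Interferon-responsive microglia were thus 62.1% (57.1 to 67.0%) of all cells with at least 4 of the genes in the injured wild-type library and 81.0% (76.2 to 85.2%) in the injured knockout-labelled one. The injured libraries differed in how many analysed cells lay outside the gate. Of those cells, 148 of 1006 (14.7%, 12.6 to 17.1%) and 59 of 432 (13.7%, 10.6 to 17.3%) had at least 4 of the genes. In the sham libraries 5 of 220 (2.27%) and 16 of 203 (7.88%) did. Among cells with at least 3 of 5 endothelial genes and fewer than 2 microglial markers, the share with at least 4 interferon genes was 12.5% (2.66 to 32.4%) and 28.9% (19.1 to 40.5%) in the sham and injured wild-type libraries. It was 26.1% (14.3 to 41.1%) and 23% (16 to 31.4%) in the knockout-labelled ones, and the sham and injured intervals overlapped under both genotype labels. These cells were shallower than the interferon-responsive microglia, with median UMIs of 4273.5 to 6317.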

How the data were processed

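The data are single-cell RNA counts of CD11b-selected mouse brain cells, 1 library per group. The deposited files hold raw UMI counts per gene and barcode, made by the authors with 10x 3′ version 3 chemistry, per the labels' protocols, and Cell Ranger 6.0.1, per the submitters' processing notes. They are filtered matrices that were not normalised, and 0 columns of per-sample values were left unused. The 78 gene symbols that occur on more than 1 row were kept as separate genes.

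Cells were filtered and picked by the rule given above. UMIs were summed over cells per library and divided by total UMIs to give CPM. Interferon-responsive and other microglia were compared within libraries with edgeR 4.0.16 in R 4.3.3 (TMM, filterByExpr, quasi-likelihood test, library as a block, Benjamini-Hochberg over all genes). On simulated counts, 31 of 49 genes raised 2-fold and 50 of 50 raised 4-fold were called. For genes lowered by as much, 26 of 46 and 48 of 50 were called. The simulated sums did not include the picking of cells on detected genes, so they do not check its effect on the calls. DESeq2 1.42.0 was an alternative. Depth was matched by drawing other microglia from the same range of total UMIs. Libraries were compared by ratios of CPM with exact conditional binomial intervals and shares by Clopper-Pearson intervals, both at 95%. A gene was counted as different at 2-fold or more with a prior of 10 CPM, at least 20 CPM in 1 library and at least 50 UMIs over the 4 libraries. Where a count was 0, 3 counts gave the upper limit. Doublets were scored with Scrublet through scanpy 1.11.5, with an expected rate of 0.8% per 1000 barcodes, and kept, with results without the highest scores as an alternative.

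The groups of genes were lists of known function, and the members and the lists were chosen with earlier results of these data known. Named genes are the 11 genes of the rule, the 12 largest and 12 smallest fold changes outside the rule and interferon lists that had the same sign in all 3 libraries, the 10 largest and 10 smallest ratios between the injured libraries, and up to 4 genes per list together with the members of the ligand, receptor and signalling lists. Other genes (Cmpk2, Il6, Apoe, Ifi27l2a, H2-K1, Slfn5, Selplg) were named after their values were seen. Genes without a given name, mitochondrial and ribosomal genes were not named. Some genes are not reported here and were left out of the lists and the named genes.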

Additional observations from a re-analysis of the deposited data

Results flagged for a closer look

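Barcodes that failed the cell filters also carried the interferon genes in the injured libraries. At least 4 of the 6 genes were found in 16 of 1735 failing barcodes of the injured wild-type library (0.922%, 0.528 to 1.49%) and in 13 of 1564 of the injured knockout-labelled library (0.831%, 0.443 to 1.42%). The sham libraries had 3 of 3433 (0.0874%) and 2 of 1290 (0.155%). These barcodes enter no comparison above, and the values in the injured libraries were above those in both sham libraries.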

How the results depend on the processing

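No paired analysis was possible because each group is 1 library and the labels give the groups no shared replicate numbers. Within libraries, the block was the library: with no replicate block, 2 genes were higher and 0 lower in interferon-responsive microglia, against 400 and 95 with it. Leaving out 1 of the 3 libraries at a time gave 112 to 955 genes higher and 4 to 399 lower, which with 2 libraries leaves 1 residual degree of freedom. The higher and lower counts were 149 and 12 with DESeq2 and 627 and 257 with no filter on low counts. They were 627 and 283 against microglia with none of the 6 genes, 205 and 11 with depth matched, and 955 and 399 with the injured libraries only. With at least 5 genes required, in the injured libraries and with cells of 4 genes counted as other microglia, they were 330 and 38. With settings added after the data were seen they were 459 and 149 (without the mixed-marker cells), 637 and 237 (without them, injured libraries), 12 and 0 (all 4 libraries, with 622 genes at an unadjusted p under 0.05) and 611 and 199 (injured libraries, against Ifi27l2a-high microglia with at most 1 of the 6 genes). Depth matching in the injured libraries alone, also added then, gave 422 and 74. Of the named genes, Fam13c, Heg1 and Epas1 changed sign with at least 5 genes required (-0.092, -0.36 and -0.64), and Cxcl13 against microglia with none of the genes (0.12) and with depth matched (0.97, and 0.97 in the injured libraries alone). Ccnd1 changed sign with no block (-0.0266) and with all 4 libraries (-0.19), Anxa2 with depth matched (-0.13, and -0.15 in the injured libraries) and Igf1 likewise (-0.030 and -0.14).

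With at least 3 genes required the shares were 2.72% and 22.8% in the sham and injured wild-type libraries and 19.3% in the injured knockout-labelled one, and with at least 5 genes 6.88% and 5.89% in the injured libraries. Thinned to 3000, 5000 and 8000 UMIs the injured shares were 3.19%, 5.43% and 9.44% (wild-type) and 3.54%, 5.85% and 9.29% (knockout-labelled), and the knockout-labelled sham share was 0 at 3000 and at 5000. Between the injured libraries, 50 genes were higher and 58 lower with a prior of 1 CPM, 1 and 16 with a prior of 50 CPM, 10 and 45 with median-of-ratios scaling, 59 and 50 with at least 5 genes and 8 and 43 with at least 3 microglial markers. Dcn changed sign with at least 3 markers (-0.037), Mgp with at least 5 genes (-0.037) and at least 3 markers (-0.15), and Mrc1 without the mixed-marker cells (-0.56). Where not given by the setting itself, the cause was not tested. Injured and sham interferon-responsive cells were not compared across all genes, since the sham libraries held 7 and 4 of them and 10 were required. Depth limits the sham shares and any gene at a few UMIs.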
